A study of Mus musculus with 56 samples.

Results

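The 9 genes described here are the chemokine receptors Ccr1, Ccr2, Ccr4, Ccr6, Ccr7, Ccr8, Cxcr3, Cxcr4 and Cxcr6, chosen by name among the 47937 genes listed in each of 2 count tables. RNA was sequenced from CD4+ T cells of C57BL/6 mice after culture for 4 days under TH1, TH2, TH17 or Treg polarizing conditions. The study asked whether loss of ODC, which makes the polyamine putrescine, or of DOHH, which completes the hypusine modification of the translation factor eIF5A, changes the identity of helper T cells. The Odc table held 16 WT and 15 KO libraries, 4 for each subset except 3 KO libraries in TH2, and the Dohh table held 12 WT and 12 KO libraries, 3 for each subset.

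Every animal of the Odc table carried Odc flox/flox and every animal of the Dohh table Dohh flox/flox. KO animals also carried Cre under the control of the CD4 promoter (CD4Cre), and WT animals lacked Cre, so that WT controls shared the floxed alleles but not the recombinase. CD4 promoter activity begins in the thymus, so deletion precedes the culture and is not limited to CD4+ cells. Cells came from spleen and lymph nodes by negative selection per the labels, and the methods of the study describe naive cells. All cultures received anti-CD3, anti-CD28 and IL-2. TH1 cultures also received IL-12 and anti-IL-4, TH2 cultures IL-4 and anti-IFN-γ, TH17 cultures IL-6, TGF-β, IL-1 and antibodies to IL-4 and IFN-γ, and Treg cultures TGF-β with the same pair of antibodies.

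Chemokine receptors are G protein-coupled receptors that steer a cell along gradients of its ligands, through Gαi proteins, and are then silenced by receptor kinases and arrestins. Ccr7 brings naive T cells into lymph nodes and Cxcr4 holds cells in bone marrow and lymphoid tissue, whereas receptors for inflammatory chemokines are gained on activation and differ between helper subsets. Cxcr3 is known from TH1 cells, Ccr4 and Ccr8 from TH2 and Treg cells, Ccr6 from TH17 and Treg cells, Cxcr6 from effector and tissue-resident T cells, and Ccr1 and Ccr2 from monocytes and from activated T cells.

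The targeted genes gave no general fall in the libraries labelled KO. Counts cover whole genes and not the floxed exons alone, so this does not check the labels. Odc1 lay at 356.6 to 860 counts scaled to library size (CPM) in WT and 424 to 680 CPM in the libraries labelled Odc-/-, and the genotypes overlapped in each subset but TH17, where it was lower in KO (476 to 618 against 669.5 to 859.9 CPM). Dohh lay at 31.5 to 45.9 CPM in WT and 45.2 to 148 CPM in those labelled Dohh-/-. Genotypes are therefore given as labelled throughout. Cd4 itself lay at 661 to 968 CPM in WT and at 22.1 to 79.7 CPM in all 12 libraries labelled Dohh-/-, whereas Cd3e lay at 186 to 260.6 and 98.1 to 326 CPM. Total counts per library ran from 5905374 to 12576933 over both tables.

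Markers of several other cell types were higher in KO libraries. Among all genes tested, 8.35% to 13.9% were called higher in the Odc subsets and 14.3% to 17.5% in the Dohh subsets. All 8 basophil and mast cell markers were called higher in 7 of 8 comparisons and 7 of 8 of them in Odc Treg, and their summed level ran from 2.79 to 18.4 CPM in WT and from 14 to 311 CPM in libraries labelled Odc-/-. That sum in Dohh libraries ran from 2.83 to 5.45 CPM in WT and from 64.6 to 1164 CPM in KO libraries. The sum of 8 myeloid markers ran from 1.33 to 46.9 CPM in WT and 9.82 to 774 CPM in KO libraries with Odc, and from 0.498 to 27.4 and 2.76 to 11609 CPM with Dohh, where Itgam was at 0 in every group. The gamma-delta T cell gene Trdc lay at 6.30 to 28.9 and 49.2 to 254 CPM, and at 14.2 to 32.9 and 282 to 676 CPM. Of 5 B cell markers 5, 5, 1 and 5 were called higher in Odc TH1, TH2, TH17 and Treg, with sums of 3.20 to 91.8 CPM in WT and 10.3 to 486 CPM in KO libraries, and with Dohh 1, 0, 1 and 1 of 4 tested, with sums of 3.29 to 51.9 and 4.39 to 51.6 CPM. Of CD8 T and NK cell markers 3, 2, 4 and 4 of 5 were called higher in the Odc subsets (sums of 9.39 to 48.7 and 13.8 to 279.6 CPM) and 2, 2, 3 and 3 of 4 in the Dohh subsets (14.7 to 28.3 and 11.8 to 374 CPM), with 1 called lower in Dohh TH1 and in TH2. In bulk RNA, a change in the number of cells of a type and a change in RNA per cell cannot be told apart. The part of other cells in the receptor levels was not tested.

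**Figure D1:**
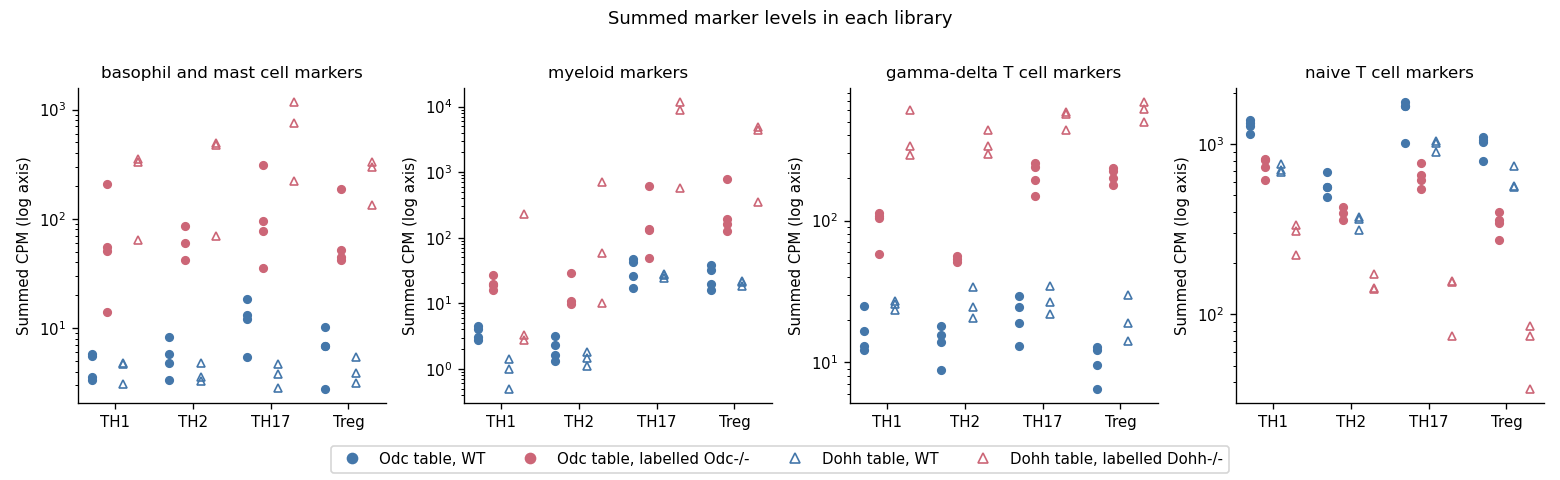
Summed CPM (log axis) of basophil and mast cell, myeloid, gamma-delta T cell and naive T cell markers in every library, by subset, genotype and table, 1 point per library. In the Dohh table every KO library exceeds every WT library in basophil and mast cell markers, 64.6 to 1164 against 2.83 to 5.45 CPM.

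Promoters are printed for Ccr6, Ccr8, Ccr4 and Cxcr6, and these 4 were chosen after their values were seen. Ccr6, Ccr8 and Ccr4 were called lower in TH1 libraries labelled Dohh-/-, and Cxcr6 was high in all 4 subsets. Cxcr3, Ccr7 and Cxcr4 were also called lower in Dohh TH1, and their promoters are not printed. Each window is from RefSeq (GRCm38.p6) and runs from 250 bases before to 50 after a start listed there. For Ccr4 that start lies inside the gene span given further on and not at its end, and for Ccr6 RefSeq also lists the window chr17:8242276-8242575, which is not printed. Capitals mark matches to the letters of 5 motifs on either strand. The AP-1 motif was TGANTCA and was looked for on either strand. The T-box motif was GGTGTGA in letters. The ROR element was spelled AGGTCA here. The GATA motif was AGATAA in letters. The STAT motif was spelled TTCNNNGAA here. The windows are chr17:8235793-8236092 on the plus strand for Ccr6, chr9:120091883-120092182 on the plus strand for Ccr8, chr9:114496495-114496794 on the minus strand for Ccr4 and chr9:123806227-123806526 on the plus strand for Cxcr6.
Ccr6: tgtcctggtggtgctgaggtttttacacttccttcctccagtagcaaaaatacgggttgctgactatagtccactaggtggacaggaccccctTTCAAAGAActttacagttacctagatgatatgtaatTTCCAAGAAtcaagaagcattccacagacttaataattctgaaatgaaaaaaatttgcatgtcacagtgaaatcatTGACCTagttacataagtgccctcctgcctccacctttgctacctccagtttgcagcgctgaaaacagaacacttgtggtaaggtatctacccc
Ccr8: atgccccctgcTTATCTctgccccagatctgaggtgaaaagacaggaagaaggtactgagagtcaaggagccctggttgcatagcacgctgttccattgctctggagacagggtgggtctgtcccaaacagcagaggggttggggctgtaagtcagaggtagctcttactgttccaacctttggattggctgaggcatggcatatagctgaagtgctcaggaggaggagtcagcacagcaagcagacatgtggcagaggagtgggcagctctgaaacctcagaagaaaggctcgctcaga
Ccr4: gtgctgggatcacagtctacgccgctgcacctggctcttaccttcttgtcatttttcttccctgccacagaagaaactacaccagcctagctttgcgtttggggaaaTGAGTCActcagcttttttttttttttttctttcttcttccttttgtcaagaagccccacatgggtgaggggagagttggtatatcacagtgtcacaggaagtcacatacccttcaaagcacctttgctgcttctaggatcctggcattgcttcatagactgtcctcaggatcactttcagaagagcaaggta
Cxcr6: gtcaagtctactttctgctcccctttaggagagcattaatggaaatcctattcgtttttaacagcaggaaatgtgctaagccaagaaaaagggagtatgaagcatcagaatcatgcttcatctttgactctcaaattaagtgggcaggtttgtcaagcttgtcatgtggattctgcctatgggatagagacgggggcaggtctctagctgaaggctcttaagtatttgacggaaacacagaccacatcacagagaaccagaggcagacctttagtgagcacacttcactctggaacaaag

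The Ccr6 window held 1 ROR element match, beginning at -44 from the start site, and 2 STAT matches, at -157 and -120, and the other Ccr6 window held a GATA match at -70. The Ccr8 window held a GATA match at -239 and the Ccr4 window an AP-1 match at -143, and none of the 5 motifs was spelled in the Cxcr6 window. Of 32851 promoters of the same length, 16.3% held the ROR element, 8.30% the STAT motif, 11.2% the GATA motif, 7.81% the AP-1 motif and 3.98% the T-box motif. A match is a description of letters and not of binding, and the motifs were chosen after the data had been seen.

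Levels among WT subsets were compared first, to show where each receptor stood without deletion. A receptor was called where it differed by over 2-fold (log2 past 1 or -1) with an adjusted p-value below 0.05 in edgeR's quasi-likelihood test over all genes, and all 9 receptors passed the low-count filter in both tables. Per kilobase of exon, the scale on which genes are compared here, Ccr7 was the most abundant of the 9 in all 8 WT groups, with 40.8% of their summed CPM per kilobase in Odc table TH2 and 81.7% in Dohh table TH17. Ccr4, Cxcr4 and Ccr8 came next in TH2 of both tables and in TH17 and Treg of the Dohh table. In TH1 of both tables Cxcr3 stood above Ccr8. In the Odc table Cxcr6 also stood above Ccr8 in TH1 and TH17, and Ccr6 above Cxcr4 in Treg. In TH2 of the Odc table Ccr7 stood at 213, Ccr8 at 117 and Ccr4 at 114 CPM per kilobase, and Ccr6 at 0.541.

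In the Odc table, 5 of 9 receptors differed between WT TH1 and TH2, beside 8.87% of all genes tested. For TH1 and TH17 4 differed (14.9% of all genes), for TH1 and Treg 7 (19.4%), for TH2 and TH17 6 (17.5%), for TH2 and Treg 4 (21.1%) and for TH17 and Treg 5 (14.0%). In the Dohh table the counts were 2 for TH1 and TH2 (6.21%), 5 for TH1 and TH17 (12.4%), 5 for TH1 and Treg (15.5%), 4 for TH2 and TH17 (13.7%), 3 for TH2 and Treg (17.1%) and 3 for TH17 and Treg (7.07%). Ccr6, Ccr8 and Ccr7 made up most of the calls of the Dohh table, and Ccr4 was called once among the 12 pairs, between TH1 and TH2 of the Odc table.

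Ccr6, the receptor for CCL20, divided the WT subsets most widely. In the Odc table its mean was 60.0 ± 13.7 CPM (SD, n = 4) in Treg and 37.5 ± 5.00 in TH17, which did not differ by the test (adjusted p = 0.172), against 2.40 ± 1.01 in TH1 and 1.26 ± 0.526 in TH2. The Dohh table gave the same order, with 41.3 ± 6.87 CPM (SD, n = 3) in Treg, 25.5 ± 6.61 in TH17, 1.17 ± 0.0820 in TH1 and 0.377 ± 0.257 in TH2. Between TH17 and TH1 the log2 difference was 3.96 (SE 0.499) with Odc and 4.44 (SE 0.503) with Dohh libraries.

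Ccr8, the receptor for CCL1, was highest in Treg and TH2. In the Odc table Treg and TH2 lay at 140.5 ± 25.1 and 138 ± 8 CPM (n = 4) and did not differ by the test (adjusted p = 0.927), TH17 lay at 23.5 ± 1.79 and TH1 at 6.89 ± 0.396. In the Dohh table the order was Treg, TH2, TH17 and TH1 at 121 ± 8.33, 70.3 ± 7.88, 31.3 ± 2.44 and 9.87 ± 1.66 CPM (n = 3). Ccr4, the receptor for CCL17 and CCL22, varied less, from 143 ± 34.9 CPM in TH1 to 353 ± 34.3 in TH2 of the Odc table, and its Dohh table means for these subsets were 70.3 ± 6.53 and 155 ± 5.51.

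Cxcr3, the receptor for CXCL9 and CXCL10, had its highest mean in TH1 at 17.1 ± 3.83 CPM (n = 4, Odc table) and 19.3 ± 2.06 (n = 3, Dohh table), and lowest in Treg at 6.16 ± 1.08 and 5.77 ± 1.10. The log2 difference between TH1 and Treg was 1.47 (SE 0.211) and 1.73 (SE 0.284). Cxcr4, the receptor for CXCL12, and Cxcr6, the receptor for CXCL16, each had their highest mean in TH17, Cxcr4 at 249.6 ± 68.6 and 111 ± 15.7 CPM and Cxcr6 at 51.0 ± 11.7 and 23.8 ± 4.40, though in the Dohh table neither was called above the next subset (adjusted p = 0.0625 and 0.101). Treg held the lowest mean of Cxcr4, 39.0 ± 14.8 and 43.3 ± 9.20 CPM, and TH2 the lowest of Cxcr6, 5.66 ± 1.17 and 6.11 ± 2.86.

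Ccr7 had its highest mean in Treg and its lowest in TH2, with 898 ± 452 CPM in Treg and 422 ± 15.3 in TH2 of the Odc table, and 1318 ± 154 and 348 ± 33.8 in the Dohh table. Its WT Treg libraries of the Odc table spread from 289 to 1313 CPM, more than those of any other WT group of that table, and Treg did not differ from TH1 there by the test (adjusted p = 0.288). TH17 differed between tables, with 540.0 ± 87.7 CPM in the Odc table, below the TH1 mean, and 1296 ± 99.3 in the Dohh table, near the Treg mean (adjusted p = 0.988). The libraries were given as separate tables, and no test was made of WT levels across them.

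Ccr1 and Ccr2, receptors for CCL3 and CCL5 and for CCL2, had their lowest means in Treg in both tables, in the Dohh table not called below the next subset (adjusted p = 0.837 and 0.0696). Ccr2 in the Odc table lay at 41.8 ± 13.7 CPM in TH17, 30.5 ± 4.26 in TH1, 11.3 ± 3.45 in TH2 and 2.94 ± 1.67 in Treg, and in the Dohh table at 5.20 ± 1.40, 15 ± 2.82, 6.53 ± 1.98 and 0.782 ± 0.312. Ccr1 lay at 9.54 ± 2.11 CPM in TH1 and 1.15 ± 0.709 in Treg of the Odc table, and at 3.07 ± 0.935 and 0.544 ± 0.373 in the Dohh table. With the replicate number as a block, which pairs the WT libraries of the Odc table across subsets, Ccr1 was also called between TH2 and Treg there (log2 1.29, adjusted p = 0.0313, against 0.120 without the block). In the Dohh table the block also called Ccr2 between TH17 and Treg (log2 2.77, adjusted p = 0.0444, against 0.0696). It called Ccr1 between TH1 and Treg there as well (log2 2.47, adjusted p = 0.0407, against 0.0717).

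**Figure D2:**
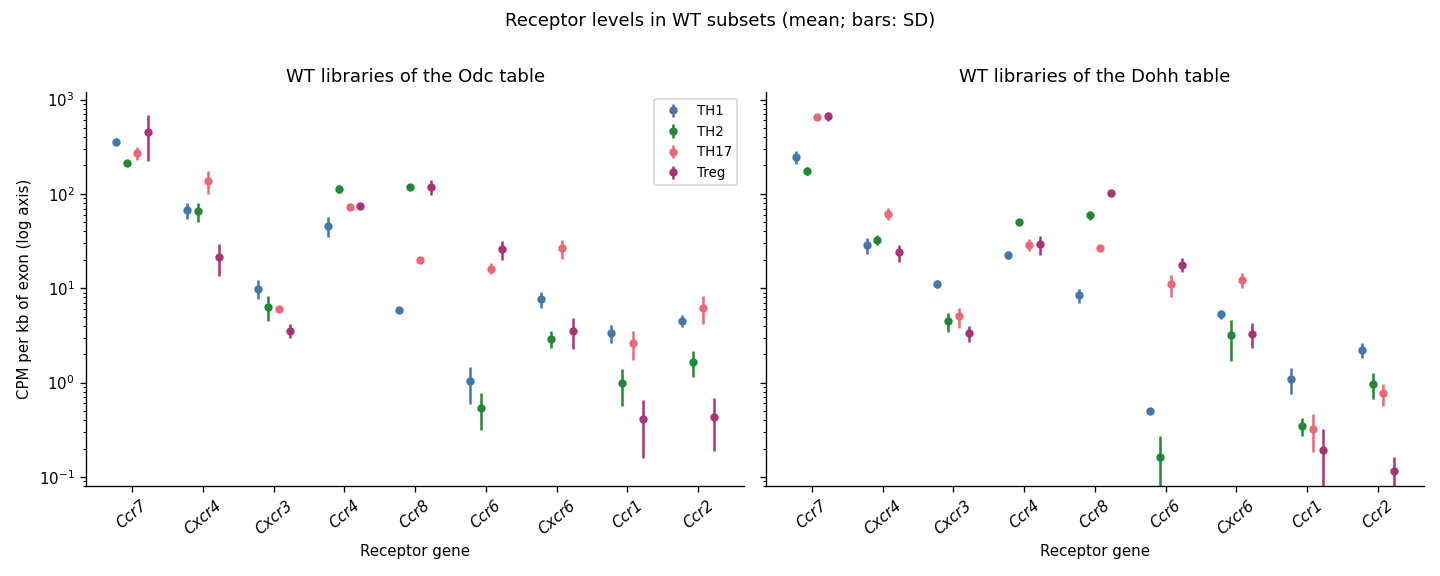
CPM per kilobase of exon (log axis) of the 9 receptors in the WT libraries of each subset and table, as group means with the SD. Ccr7 leads in every group, and Ccr6 is far lower in TH1 and TH2 than in Treg and TH17 of both tables. Bars that would pass below the axis are clipped.

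Each KO group was then compared with the WT group of its own table and subset. With Odc, receptors were called in 14 of 36 comparisons, 8 higher and 6 lower, and with Dohh in 28 of 36, 13 higher and 15 lower. In Odc TH1 1 receptor rose and 1 fell, where 10.2% of all genes rose and 11.3% fell. In Odc TH2 1 rose and 3 fell (11.5% and 13.6% of all genes), in Odc TH17 2 rose and 1 fell (8.35% and 7.21%), and in Odc Treg 4 rose and 1 fell (13.9% and 10.1%). In Dohh TH1 3 rose and 6 fell (14.8% and 14.2%), in Dohh TH2 2 rose and 3 fell (14.3% and 11.6%), in Dohh TH17 4 rose and 3 fell (17.3% and 14.1%), and in Dohh Treg 4 rose and 3 fell (17.5% and 15.2%). Cxcr6 rose in 7 of 8 comparisons, and Ccr7 fell in 6 and rose in none. Of 6 T cell markers 3 were called lower in Odc TH2 and none in the other Odc subsets. In each Dohh subset 1 was called lower, Cd4, with log2 fold changes of -3.60 to -4.65. The median log2 fold change of the 6 was 0.25, -0.34, -0.16 and -0.17 in Dohh TH1, TH2, TH17 and Treg. Their sum, with Cd4 in it, was 2116 to 2487 CPM in WT and 1332 to 1542 CPM in KO libraries of Odc TH2. The groups also did not overlap in this sum in Odc TH1, Dohh TH2 and Dohh Treg, with KO lower. Their part in the receptor levels was not tested.

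**Figure D3:**
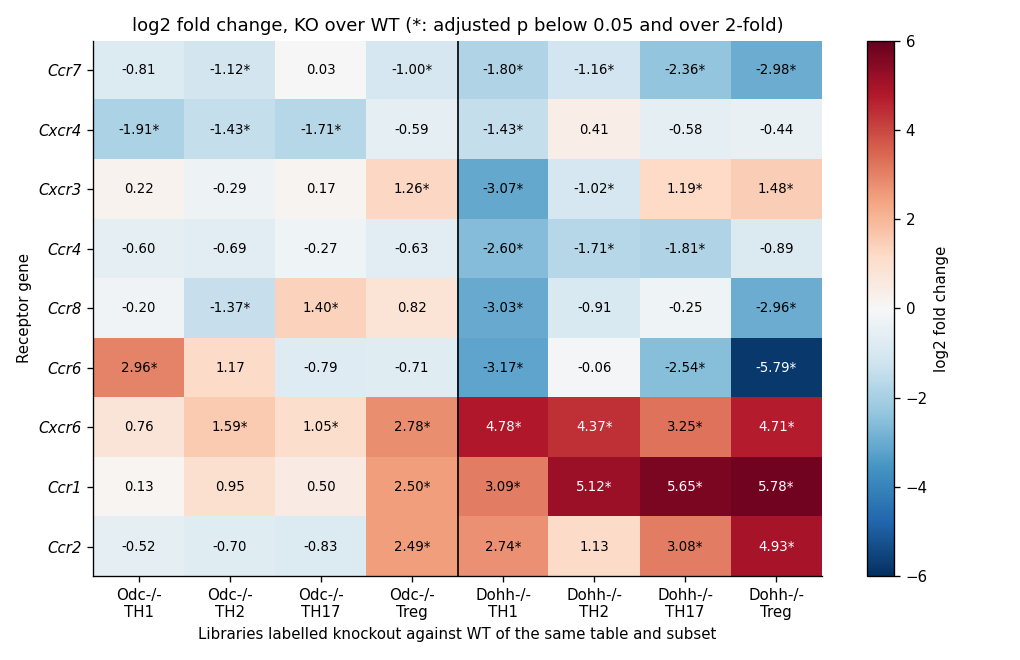
Log2 fold change of each receptor in KO against WT libraries, by subset and table, as a colour and a number, with called changes marked by a star. Cxcr6 lies above 0 in all 8 comparisons and Ccr7 below 0 in 7 (in Odc TH17 its sign turns with RLE size factors), and the span is wider in the Dohh table, from -5.79 to 5.78, than in the Odc table, from -1.91 to 2.96. The Ccr6 values of Dohh TH1 and TH2 rest on few counts. The ends of the Dohh span, Ccr6 and Ccr1 in Treg, rest on 21 KO counts and 20 WT counts in all.

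Ccr7, which guides naive T cells into lymph nodes along CCL19 and CCL21, lies at chr11:99144196-99155077 on the minus strand of GRCm38. In Dohh Treg its WT libraries held 1375, 1436 and 1145 CPM and those labelled Dohh-/- 192, 168 and 139.9 CPM. In Dohh TH17 the values were 1186, 1379.6 and 1322 CPM in WT and 340.3, 249 and 168 CPM in KO. The groups stood far apart in both subsets, with log2 fold changes of -2.98 (SE 0.274, adjusted p = 2.63e-08) and -2.36 (SE 0.267, adjusted p = 6.39e-07). In Dohh TH1 WT libraries held 458, 567 and 426 CPM and KO libraries 152, 188 and 77.4, and in Dohh TH2 368, 368 and 309 against 128, 168 and 171. These did not overlap either, with log2 fold changes of -1.80 (SE 0.262, adjusted p = 1.38e-05) and -1.16 (SE 0.258, adjusted p = 0.00108).

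In Odc TH2 Ccr7 fell from 409.6, 444, 415 and 419 CPM in WT to 178, 206 and 198 CPM (log2 -1.12, SE 0.290, adjusted p = 0.00178). In Odc Treg WT libraries held 1154, 837, 1313 and 289 CPM and libraries labelled Odc-/- 481, 450.3, 287 and 573. These groups overlapped, since WT replicate 4 lay among the KO values, and the log2 fold change of -1.0 (SE 0.261, adjusted p = 0.00186) only just passed the limit. Without KO replicate 3, WT replicate 1 or WT replicate 3 it was -0.84, -0.86 or -0.76 and was not called. The call was also lost with the replicate number as a block. Odc TH1 libraries lay at 472, 411, 334 and 399.7 CPM against 682, 766, 642 and 746 in WT without overlap, and the log2 fold change of -0.81 (SE 0.261) was below the 2-fold limit. Odc TH17 means were 552 ± 104 and 540.0 ± 87.7 CPM (log2 0.03, SE 0.259), and this sign turned with RLE size factors.

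Markers of naive T cells were lower in many of the same comparisons as Ccr7. Of 5 such genes, with Lef1 and Tcf7 among them, all 5 fell in Dohh TH17 and in Dohh Treg, 4 in Dohh TH1 and 3 in Dohh TH2, and 1, 1, 1 and 3 fell in Odc TH1, TH2, TH17 and Treg. Among all genes, 11.6% to 15.2% fell with Dohh and 7.21% to 13.6% with Odc. The sum of the 5 markers lay at 313 to 1039 CPM in WT and 36.6 to 334 CPM in libraries labelled Dohh-/-, and with Odc at 491 to 1765 and 274 to 817 CPM. In Odc TH17, where Ccr7 was not called, their sum was also lower without overlap, 547 to 772 against 1019.7 to 1765 CPM. Their part in the Ccr7 result was not tested.

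Cxcr4, which retains cells in niches rich in CXCL12, lies at chr1:128588199-128592293 on the minus strand. In Odc TH1 it fell from 140.3, 117, 139 and 88.4 CPM in WT to 60.4, 18.6, 24.6 and 26.2 CPM. In Odc TH17 it fell from 305, 244, 295 and 155 CPM to 96.5, 71.3, 70.2 and 67.0 CPM, and in Odc TH2 from 135, 118, 142 and 81.1 CPM to 25.0, 64.3 and 43.3 CPM. Groups did not overlap in any of these subsets, and WT replicate 4 was the lowest WT library in each. Log2 fold changes were -1.91 (SE 0.333, adjusted p = 4.63e-05), -1.71 (SE 0.322, adjusted p = 0.000162) and -1.43 (SE 0.359, adjusted p = 0.00145). In Odc Treg, where WT was lowest, the change was -0.59 (SE 0.333, adjusted p = 0.125).

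In the Dohh table Cxcr4 fell in TH1, from 48.5, 44.2 and 62.7 CPM to 13.6, 7.73 and 35.6 CPM (log2 -1.43, SE 0.368, adjusted p = 0.00307). KO replicate 3 was the highest of the 3 and lay nearest to WT, and without it the log2 fold change was -2.25. With only these 2 groups in the fit it was not called. TH2, TH17 and Treg gave log2 fold changes of 0.41 (SE 0.353), -0.58 (SE 0.352) and -0.44 (SE 0.358), none of them called. KO TH2 libraries held 106, 71.4 and 56.5 CPM against 61.1, 51.1 and 64.0 in WT, so these groups overlapped.

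Cxcr3, the TH1 receptor for chemokines induced by IFN-γ, lies at chrX:101731535-101734269 on the minus strand. In Dohh TH1, the subset where WT levels were highest, it fell from 17.0, 20.8 and 20.2 CPM to 1.12, 2.37 and 3.42 CPM (log2 -3.07, SE 0.314, adjusted p = 1.93e-07). In Dohh Treg it rose from 6.32, 4.5 and 6.48 CPM to 16.6, 19.7 and 12.2 CPM, and in Dohh TH17 from 8.80, 10.7 and 6.58 CPM to 22.7, 21.1 and 15.7 CPM. The log2 fold changes were 1.48 (SE 0.284, adjusted p = 0.000201) and 1.19 (SE 0.278, adjusted p = 0.00136). The order of the subsets was thus turned over in libraries labelled Dohh-/-, with TH17 and Treg above TH1 in every library. In Dohh TH2 Cxcr3 fell from 9.71, 7.40 and 6.17 CPM to 3.78, 3.77 and 3.92 CPM (log2 -1.02, SE 0.294, adjusted p = 0.00759), a call lost without WT replicate 1 (log2 -0.83).

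In Odc Treg Cxcr3 rose from 6.67, 4.65, 7.14 and 6.18 CPM to 11.4, 15.3, 15.8 and 16.4 CPM (log2 1.26, SE 0.211, adjusted p = 1.39e-05). The other Odc subsets overlapped with WT, at log2 fold changes of 0.22 (SE 0.199) in TH1, -0.29 (SE 0.227) in TH2 and 0.17 (SE 0.206) in TH17. Tbx21, the TH1 transcription factor, rose in Dohh TH1 while Cxcr3 fell there, from 74.4 to 111 CPM in WT to 267 to 590.0 CPM.

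Ccr4, the receptor of skin-homing, TH2 and Treg cells, lies at chr9:114490316-114504916 on the minus strand. It fell in 3 of 4 Dohh subsets and had a log2 fold change below 0 in all 8 comparisons. In Dohh TH1 WT libraries held 77.5, 68.4 and 64.8 CPM and KO libraries 22.5, 5.37 and 6.18 CPM. In Dohh TH2 they held 161, 153 and 150.3 against 53.6, 49.9 and 38.5 CPM, and in Dohh TH17 92.8, 76.4 and 100.5 against 38.9, 29.4 and 8.01 CPM. KO replicate 1 was the highest of the KO libraries in each of these subsets. The log2 fold changes were -2.60 (SE 0.451, adjusted p = 0.000105), which became -3.57 without KO replicate 1, then -1.71 (SE 0.423, adjusted p = 0.00292) and -1.81 (SE 0.429, adjusted p = 0.00170). In Dohh Treg the change was -0.89 (SE 0.416, adjusted p = 0.0785).

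In the Odc table Ccr4 moved by less than the 2-fold limit, with log2 fold changes of -0.60 (SE 0.199) in TH1, -0.69 (SE 0.215) in TH2, -0.27 (SE 0.196) in TH17 and -0.63 (SE 0.197) in Treg. TH2 and Treg libraries did not overlap with WT, and their adjusted p-values were 0.00761 and 0.00736.

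Ccr8, a receptor of TH2 and Treg cells, lies at chr9:120092114-120094906 on the plus strand. In Dohh Treg it fell from 123, 111 and 127 CPM to 12.9, 18.2 and 15.5 CPM (log2 -2.96, SE 0.298, adjusted p = 8.89e-08). In Odc Treg the libraries labelled Odc-/- held 212, 284, 169.7 and 329 CPM against 157, 126, 166 and 113 in WT. Both sets of Treg libraries were thus free of overlap, in opposite directions, and the Odc change of 0.82 (SE 0.229, adjusted p = 0.00310) was under the 2-fold limit.

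In Dohh TH1 Ccr8 fell from 10.2, 11.4 and 8.07 CPM to 1.74, 1.89 and 0.110 CPM (log2 -3.03, SE 0.388, adjusted p = 3.35e-06), and without KO replicate 3, the lowest, the change was -2.44. In TH2 it fell from 149, 135, 129.5 and 137 CPM to 40.4, 64.7 and 54.1 CPM in the Odc table (log2 -1.37, SE 0.260, adjusted p = 7.93e-05). TH2 of the Dohh table gave -0.91 (SE 0.277, adjusted p = 0.0110), from 79.1, 67.9 and 63.9 to 41.1, 32.5 and 38.7 CPM, again with no overlap, and it was called without KO replicate 1 (log2 -1.02). In Odc TH17 it rose from 24.5, 21.7, 22.5 and 25.6 CPM to 33.2, 99.4, 41.3 and 73.9 CPM (log2 1.40, SE 0.244, adjusted p = 6.95e-05), and Dohh TH17 gave -0.25 (SE 0.280), which turned above 0 without KO replicate 3. Foxp3, the transcription factor of Treg cells, lay at 393 to 639 CPM in WT and 312 to 517 CPM in libraries labelled Odc-/- of Treg cultures, and at 554 to 589 and 61.6 to 179 CPM in the Dohh table.

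Ccr6, which draws TH17 and Treg cells to mucosa, lies at chr17:8236043-8257141 on the plus strand, with 1 of its RefSeq promoters printed above. In Dohh Treg it fell from 43.6, 33.6 and 46.7 CPM to 0.994, 0.707 and 0.515 CPM, the lowest KO to WT ratio among the 72 comparisons of a receptor. The log2 fold change was -5.79 (SE 0.543, adjusted p = 3.44e-08). In Dohh TH17 it fell from 30.0, 18 and 28.6 CPM to 7.71, 3.78 and 1.36 CPM (log2 -2.54, SE 0.442, adjusted p = 8.55e-05), and without KO replicate 1, the highest of the 3, the change was -3.24.

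In Dohh TH1 Ccr6 was near the counting floor. WT libraries summed to 36 counts and KO libraries to 3, a ratio of 9.74 with a 95% counting interval of 3.08 to 49.4, and the call of edgeR (adjusted p = 0.00423) held without each library. In Dohh TH2 both genotypes lay at 0.102 to 0.839 CPM, near the floor of 3 counts, so that a fitted fold change there is no measure of a change.

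In Odc TH1 Ccr6 rose from 2.31, 1.56, 1.89 and 3.85 CPM to 40.5, 14.9, 11.3 and 8.54 CPM (log2 2.96, SE 0.511, adjusted p = 4.13e-05). KO replicate 1 was the highest, and the log2 fold change was 2.25 without it. The B cell markers stood in the same order there, with sums of 319, 131, 115 and 90.3 CPM in KO replicates 1 to 4 against 6.54 to 38.2 CPM in WT. In Odc TH2 the orders parted. The B cell sums there were 486, 315 and 281 CPM in KO replicates 2 to 4, beside Ccr6 at 2.25, 3.57 and 2.58 CPM. The part of B cells in the Ccr6 level was not tested. Odc TH17 and Treg were not called, at -0.79 (SE 0.391) and -0.71 (SE 0.378), nor was Odc TH2 at 1.17 (SE 0.724). The latter was called with only the 2 groups in the fit and by DESeq2.

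**Figure D4:**
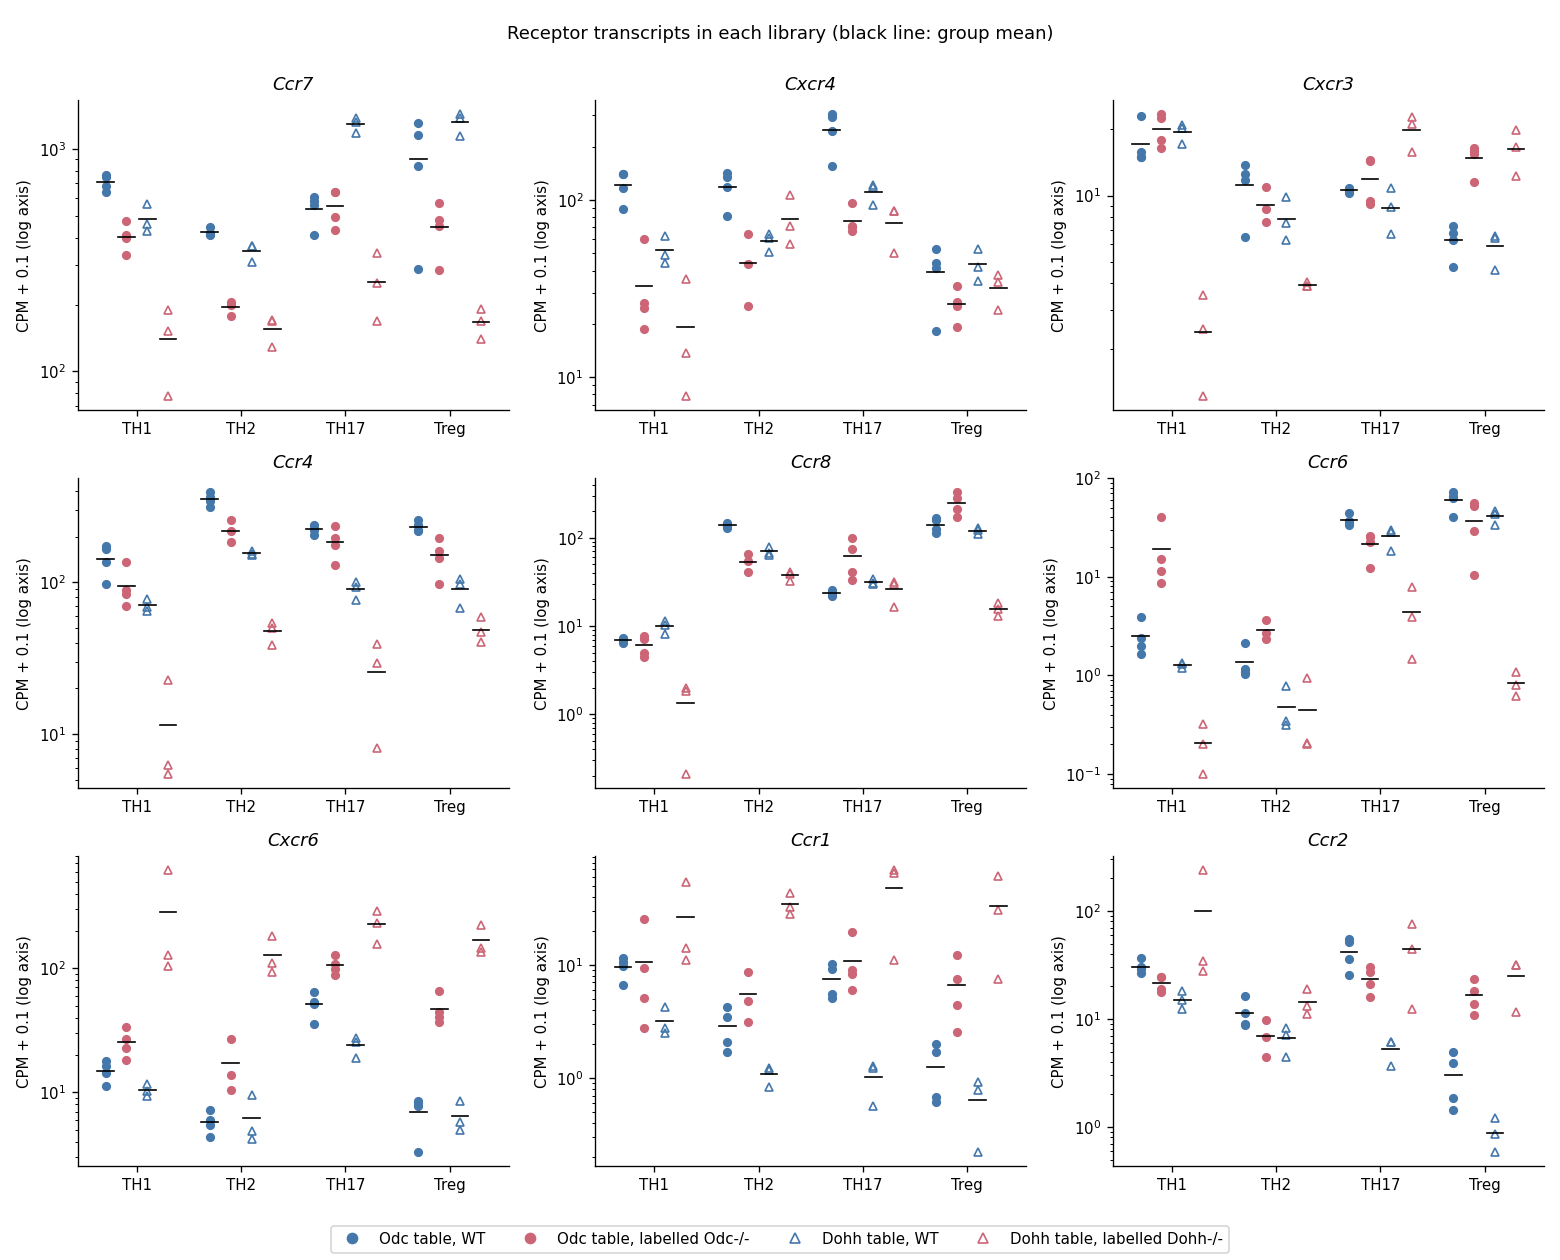
CPM plus 0.1 (log axis) of each receptor in every library, by subset, table and genotype, 1 point per library with a line at the group mean. Cxcr6 of the Dohh table shows no overlap between WT, up to 27.2 CPM, and KO, from 92.9 CPM, and Ccr6 in Dohh Treg drops from 33.6 or more to 0.994 CPM or less.

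Cxcr6, a receptor of tissue-resident and effector T cells for the membrane-bound ligand CXCL16, lies at chr9:123806475-123811760 on the plus strand, inside Fyco1 on the opposite strand with no shared exon bases. In Dohh TH1 WT libraries held 11.5, 9.17 and 10.1 CPM and KO libraries 127, 105 and 618 CPM. In Dohh Treg they held 8.43, 4.86 and 5.71 against 224, 145 and 134 CPM, and in Dohh TH2 9.38, 4.12 and 4.82 against 182, 92.9 and 109.9 CPM. All KO libraries of these subsets lay far above WT, and TH1 replicate 3 lay apart from the other KO libraries. The log2 fold changes were 4.78 (SE 0.568, adjusted p = 2.27e-06), with 3.5 without that library, then 4.71 (SE 0.573, adjusted p = 1.74e-06) and 4.37 (SE 0.568, adjusted p = 6.94e-06). In Dohh TH17, where WT levels were highest, it rose from 27.2, 25.4 and 18.8 CPM to 291, 233 and 158 CPM (log2 3.25, SE 0.524, adjusted p = 5.33e-05).

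In Odc Treg Cxcr6 rose from 8.36, 3.20, 7.72 and 8.04 CPM to 40.2, 44.1, 65.5 and 36.9 CPM (log2 2.78, SE 0.285, adjusted p = 1.33e-08). In Odc TH2 it rose from 7.10, 4.27, 5.88 and 5.39 CPM to 10.3, 27.0 and 13.8 CPM (log2 1.59, SE 0.320, adjusted p = 0.000160). In Odc TH17 it rose from 51.3, 35.5, 63.8 and 53.4 CPM to 108, 88.0, 129 and 98 CPM (log2 1.05, SE 0.248, adjusted p = 0.00130), just past the limit. That call was lost without KO replicate 3 (log2 0.94) or WT replicate 2 (log2 0.91). Odc TH1 gave 0.76 (SE 0.273, adjusted p = 0.0190) with no overlap between genotypes. Per kilobase, Cxcr6 made up 1.64% of the 9 receptors in WT and 56.9% in KO libraries of Dohh TH1. That share was 38.8%, 32.6% and 73.1% in KO replicates 1, 2 and 3, and Cxcr6 stood above Ccr7 in replicate 3 alone. In Dohh Treg Cxcr6 made up 0.387% in WT and 42.7%, 31.2% and 32.3% in the KO libraries, above Ccr7 in replicate 1 alone.

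Ccr1, a receptor of CCL3 and CCL5 on myeloid and activated cells, lies at chr9:123962124-123968692 on the minus strand and rose in all 4 Dohh subsets. In Dohh TH17 it rose from 1.13, 1.17 and 0.462 CPM to 10.9, 64.5 and 68.7 CPM, and in Dohh Treg from 0.828, 0.122 and 0.682 CPM to 7.40, 30.5 and 60.7 CPM. KO replicate 1 was the lowest KO library in both, and still above every WT library. The log2 fold changes were 5.65 (SE 0.863, adjusted p = 3.27e-05) and 5.78 (SE 0.901, adjusted p = 3.21e-05), the latter 4.93 without KO replicate 3. In Dohh TH2 it rose from 1.07, 0.740 and 1.12 CPM to 27.8, 43.5 and 32.5 CPM (log2 5.12, SE 0.854, adjusted p = 0.000100), and in Dohh TH1 from 4.14, 2.39 and 2.69 CPM to 13.9, 11.0 and 54.2 CPM (log2 3.09, SE 0.742, adjusted p = 0.00204).

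In Odc Treg Ccr1 rose from 1.91, 0.517, 1.61 and 0.583 CPM to 7.40, 4.34, 12.2 and 2.48 CPM (log2 2.50, SE 0.630, adjusted p = 0.00142). It was not called in Odc TH1 (log2 0.13, SE 0.513), TH2 (0.95, SE 0.621) or TH17 (0.50, SE 0.514), where genotypes overlapped. With the replicate number as a block Ccr1 was called in Odc TH2. In Odc TH1 KO replicate 1 held 25.2 CPM and the other KO libraries 2.66 to 9.29, and without it the log2 fold change was -0.77.

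Ccr2, the CCL2 receptor, lies at chr9:124101950-124113557 on the plus strand and shares 1.63% of its runs of 50 bases with the other receptor genes compared, so that the assignment of some of its reads is uncertain. In Dohh Treg it rose from 0.753, 0.486 and 1.11 CPM to 11.5, 31.3 and 31.9 CPM (log2 4.93, SE 0.885, adjusted p = 0.000148). In Dohh TH17 it rose from 5.97, 6.05 and 3.58 CPM to 12.4, 75.9 and 44.4 CPM (log2 3.08, SE 0.727, adjusted p = 0.00180), or 2.41 without KO replicate 2. In Dohh TH1 WT libraries held 17.9, 12.3 and 14.9 CPM and KO libraries 34.6, 27.5 and 239 CPM. The rise there (log2 2.74, SE 0.692, adjusted p = 0.00310) rested on KO replicate 3, without which it was 1.06 (adjusted p = 0.0824) and not called, and which also moved Ccr1 from 3.09 to 2.01. Dohh TH2 gave 1.13 (SE 0.704, adjusted p = 0.201) with no overlap, and was called with only the 2 groups in the fit.

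In Odc Treg Ccr2 rose from 3.81, 1.34, 4.84 and 1.75 CPM to 18.1, 13.6, 23.4 and 10.8 CPM (log2 2.49, SE 0.340, adjusted p = 9.75e-07). The other Odc subsets lay on the other side of 0, at -0.52 (SE 0.285) in TH1, -0.70 (SE 0.348) in TH2 and -0.83 (SE 0.281) in TH17, none of them called. Ccr2 was called lower in TH2 without KO replicate 3 (log2 -1.03) and in TH17 without WT replicate 4 (log2 -1.0).

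Myeloid markers, of a cell type that carries Ccr1 and Ccr2, were compared library by library with these receptors. In Dohh TH17 and Treg KO replicate 1 was lowest in both measures, with a myeloid sum of 579 and 346 CPM against 4376 to 11609 in replicates 2 and 3. In Odc TH17 and Treg KO replicate 3 held the highest myeloid sum, 604 and 774 CPM, and the highest Ccr1, 19.5 and 12.2 CPM. Ccr2 followed in Odc Treg (23.4 CPM), but in Odc TH17 it was highest in KO replicate 1 (30.3 CPM), which had the lowest myeloid sum, 49.3 CPM. In Dohh TH2 the myeloid sums of 10.2, 713 and 58.1 CPM in KO replicates 1 to 3 stood in the order of both Ccr1 and Ccr2, and in Odc TH1 those of 27.3, 18.6, 20 and 16.1 CPM in the order of Ccr1. In Odc TH2 KO replicate 3 was highest in the myeloid sum, Ccr1 and Ccr2. In Dohh TH1 the libraries parted, since KO replicate 3, the highest in Cxcr6, Ccr1 and Ccr2, had a myeloid sum of 3.31 CPM, and KO replicate 2, with 227 CPM, was the lowest of the KO libraries in all of them. The basophil and mast cell sum was 64.6, 351 and 329 CPM in the 3 KO libraries of Dohh TH1. Replicate 3 there was highest in gamma-delta T cell markers, with sums of 289, 335 and 603 CPM, and in CD8 T and NK cell markers, with 11.8, 20.2 and 43.7 CPM. In Odc Treg, where Cxcr3, Cxcr6, Ccr1 and Ccr2 rose, the CD8 T and NK cell sum was 24.7 to 48.7 CPM in WT and 192 to 279.6 CPM in KO libraries. These 4 receptors also rose in Dohh TH17 and Treg, where that sum was 22.9 to 26.3 and 22.1 to 28.3 CPM in WT and 90 to 158 and 192 to 374 CPM in KO libraries. Library by library that sum ran opposite to Cxcr6 in both. It was 90, 144 and 158 CPM in KO replicates 1 to 3 of TH17 and 192, 272 and 374 CPM in those of Treg. Gamma-delta T cell sums stood in the order of Cxcr6 there, with 588, 564 and 438 CPM in KO replicates 1 to 3 of TH17 and 683, 611 and 499 CPM in those of Treg. In KO libraries of the other Dohh subsets and of every Odc subset the orders parted. In Dohh TH2 the gamma-delta sums were 436, 334 and 295 CPM, beside Cxcr6 at 182, 92.9 and 109.9 CPM. Of 7 myeloid markers tested, 3 were called higher in Dohh TH1, 7 in TH2 and TH17 and 6 in Treg of that table, and 2, 1, 7 and 6 in Odc TH1, TH2, TH17 and Treg. The part of any of these cell types in the receptor levels was not tested.

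Whether the effect of genotype differed between subsets was tested jointly over the 4 subsets of a table with edgeR, at an adjusted p-value below 0.05. In the Odc table it differed for 5 of 9 receptors, beside 34.8% of all genes, and in the Dohh table for 4, beside 17.9%. Ccr6, Ccr8 and Cxcr3 passed in both tables. Ccr2 and Cxcr6 passed in the Odc table, with adjusted p-values of 6.63e-06 and 0.00101 (0.103 and 0.292 with Dohh), and Ccr7 in the Dohh table (adjusted p = 0.00561, and 0.0554 with Odc). With the replicate number as a block the Odc table also gave Ccr1 (adjusted p = 0.00682) and Cxcr4 (adjusted p = 0.0153), and Ccr7 stood at 0.0744. DESeq2 called Ccr1 (adjusted p = 0.0481) and Ccr7 (adjusted p = 0.0272) in the Odc table and Ccr2 (adjusted p = 0.0187) and Cxcr4 (adjusted p = 0.0251) in the Dohh table. Whether the interaction itself differed between tables was not tested. For Cxcr3 in the Dohh table (adjusted p = 6.70e-07) the effects ran from -3.07 in TH1 to 1.48 in Treg, and for Ccr8 in the Odc table (adjusted p = 7.24e-06) from -1.37 in TH2 to 1.40 in TH17.

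The Dohh effect was set against the Odc effect in a single fit of 16 groups, each KO group against the WT of its own table, so that a constant shift between tables cancels. The deleted gene and the table cannot be told apart in this contrast. A difference was called for 7 of 9 receptors in TH1 (11.3% of all genes), 3 in TH2 (10.3%), 8 in TH17 (14.0%) and 6 in Treg (17.5%). Cxcr6 and Ccr1 rose more in the Dohh table in all 4 subsets. For Cxcr6 the differences in log2 fold change were 4.03 (SE 0.569) in TH1, 2.77 (SE 0.625) in TH2, 2.26 (SE 0.528) in TH17 and 1.97 (SE 0.576) in Treg, and for Ccr1 2.96 (SE 0.898), 4.17 (SE 1.07), 5.21 (SE 0.985) and 3.31 (SE 1.15).

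Ccr6 parted in opposite directions in TH1, where it rose with Odc and fell with Dohh deletion, with a fitted difference of -6.10 (SE 1.13, adjusted p = 0.000134) whose size is uncertain, since the Dohh KO libraries hold 3 counts in all, and also differed by -5.03 (SE 0.698, adjusted p = 3.70e-07) in Treg. Ccr8 in Treg differed by -3.74 (SE 0.371, adjusted p = 2.06e-10), and Cxcr3 in TH1 by -3.27 (SE 0.357, adjusted p = 6.90e-09). Cxcr4 fell in Odc TH2 and not in Dohh TH2, a difference of 1.83 (SE 0.524, adjusted p = 0.0116), while its difference of 0.49 (SE 0.514) in TH1, 1.19 (SE 0.496) in TH17 and 0.20 (SE 0.511) in Treg was not called.

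**Figure D5:**
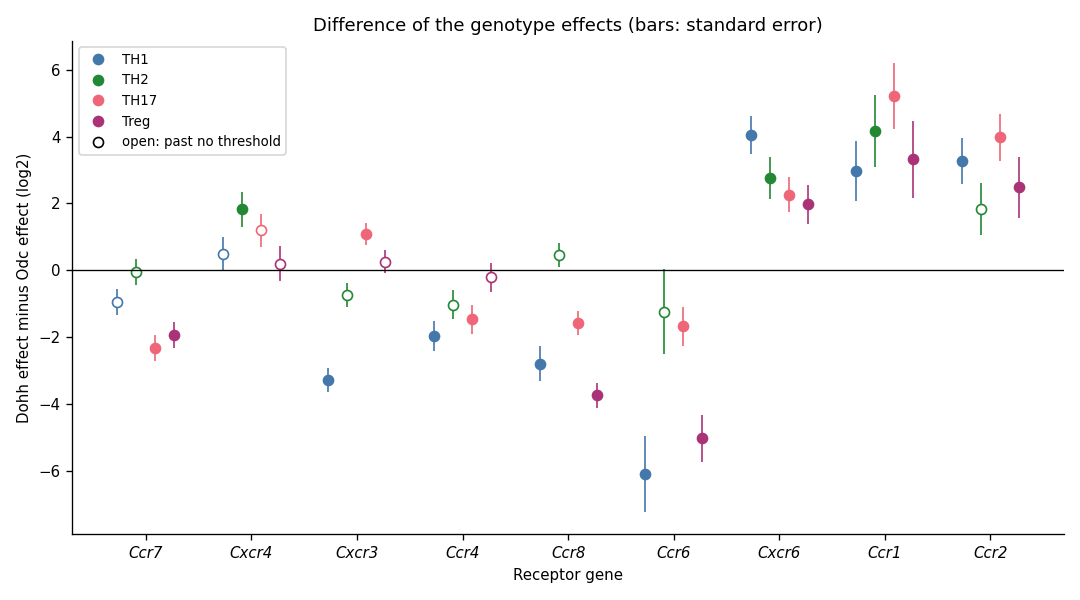
Difference of the log2 fold changes, Dohh effect minus Odc effect, of each receptor by subset, with the SE, called differences as filled points. Cxcr6 and Ccr1 lie above 0 in all 4 subsets, and Ccr6 reaches -6.10 in TH1, a size that rests on 3 counts in the Dohh KO libraries.

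Among 20 ligands of these receptors, 13 were tested in each table. Of these 9, 8, 9 and 11 rose in Odc TH1, TH2, TH17 and Treg and none fell, and 7, 11, 11 and 10 rose in the Dohh subsets, with Ccl20, the ligand of Ccr6, falling in Dohh TH17 (log2 -1.39, adjusted p = 0.0191, named after its value was seen). Among all genes, 8.35% to 13.9% rose and 7.21% to 13.6% fell with Odc. With Dohh these shares were 14.3% to 17.5% and 11.6% to 15.2%. The median fitted log2 fold change of the list was 3.24, 3.22, 2.00 and 2.87 in the Odc subsets and 5.13, 6.04, 5.87 and 4.41 in the Dohh subsets, and over all genes it lay between -0.00193 and 0.0731. With genes at the counting floor set to their bound, which lowers both TH1 values and that of Dohh TH2 most, the list median was 1.79, 3.13, 1.91 and 2.96 with Odc and 3.33, 4.28, 5.84 and 4.54 with Dohh. Cxcl9, a ligand of Cxcr3 made by myeloid cells, lay at 0 to 0.284 CPM in WT and 0.133 to 10.8 CPM in libraries labelled Odc-/-, and at 0 to 0.0828 and 0 to 23.4 CPM in the Dohh table. Ccl1, the ligand of Ccr8, lay at 0 to 4.89 and 0 to 79.9 CPM, and at 0 to 1.45 and 0.204 to 191 CPM. Ccl6, a ligand of Ccr1, lay at 0.134 to 7.24 and 0.453 to 53.1 CPM, and at 0 to 4.52 and 1.53 to 362 CPM. The summed level of the 20 ligands was 1514 to 2047 CPM in KO libraries of Dohh TH1, where the myeloid sum was 2.76 to 227 CPM, and 389.9 to 854 CPM in those of Dohh Treg, where it was 346 to 4833 CPM. In Dohh TH17 KO libraries the ligand sum was 954 to 2028 CPM and the myeloid sum 579 to 11609 CPM. In those of Dohh TH2 they were 819 to 2032 and 10.2 to 713 CPM. The part of myeloid and basophil cells was not tested.

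Of 15 other chemokine receptors 7 were tested with Odc and 8 with Dohh. In Odc TH1, TH2, TH17 and Treg 1, 1, 2 and 3 rose and 2, 3, 4 and 1 fell, and in the Dohh subsets 1, 1, 5 and 4 rose and 4, 1, 2 and 1 fell. The shares of all genes that rose and fell in each comparison are given above with the 9 receptors. Cxcr1, known from neutrophils, fell in 7 of 8 comparisons, from a median of 22.4 CPM over WT libraries to 2.33 in those labelled Odc-/- and from 18.4 to 0.569 CPM in the Dohh table. Cxcr5, the follicular homing receptor, rose in all 4 Odc subsets by 1.72 to 2.26 and fell in Dohh TH1 (-1.67) and TH17 (-1.60). It was not called in Dohh TH2 or Treg. The B cell markers given above were called higher more often with Odc, though 1 was called higher in TH17 of each table and none lower in any comparison, and their part was not tested.

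Of 30 genes of receptor signalling and trafficking 29 were tested with Odc and 28 with Dohh. In the Odc subsets 1, 2, 1 and 1 rose and 3, 5, 4 and 6 fell, and in the Dohh subsets 1, 6, 3 and 2 rose and 3, 2, 4 and 5 fell, with list medians between -0.14 and 0.36. Over all genes, 8.35% to 13.9% rose and 7.21% to 13.6% fell in the Odc subsets. The Dohh shares were 14.3% to 17.5% and 11.6% to 15.2%. Arrb1, a β-arrestin that ends receptor signalling, fell in all 4 Odc subsets, with log2 fold changes of -2.04 to -2.92, and in Dohh TH17 (-1.45) and Treg (-1.17). Tiam1, an activator of Rac, fell in 7 comparisons, at -1.31 to -1.52 in Odc TH2, TH17 and Treg and at -2.47 to -3.48 in the Dohh subsets. Grk3, a kinase that phosphorylates active receptors, rose in 5 comparisons.

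Of 16 genes of tissue homing and egress, all tested, 0, 3, 2 and 2 rose and 1, 4, 2 and 4 fell in the Odc subsets, and 4, 3, 1 and 3 rose and 3, 1, 3 and 5 fell in the Dohh subsets. Over all genes, 8.35% to 13.9% rose and 7.21% to 13.6% fell with Odc, and 14.3% to 17.5% and 11.6% to 15.2% with Dohh. S1pr1, the receptor for exit from lymph nodes, fell in 6 comparisons. Gpr15, a homing receptor for the colon, rose in 5, by 1.89 and 2.94 in Odc Treg and TH2 and by 2.98 to 4.35 in Dohh Treg, TH1 and TH2.

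Genes whose pattern was most like that of a receptor were ranked by the lower of 2 Pearson correlations of group means of log2 CPM, each over the 8 groups of a table. Ccr6 was followed by Rasa3 (r = 0.95 and 0.94), Sestd1 (0.93 and 0.96) and Trps1 (0.92 and 0.93), and Cxcr6 by Becn1 (0.94 and 0.97), Ten1 (0.93 and 0.93) and Slc11a1 (0.93 and 0.93). Ccr7 was followed by Vps11 (0.95 and 0.96), Zbtb24 and Mmp11, Ccr8 by Snn (0.92 and 0.92), Ints6l and Mtmr7, and Ccr4 by Pik3r2 (0.90 and 0.94), Glb1 and Gpam. Ccr2 was followed by Ly6e (0.92 and 0.95) and Gsr, and Ccr1 by Myo1f (0.91 and 0.96), Fkbp5 and Uchl1. Cxcr3 had the weakest likeness, with Trmt1l (0.76 and 0.75), Id3 and Kdr, and Cxcr4 was followed by Fbxo27 (0.84 and 0.90), Acadm and Tmem35b. These are descriptions over groups that share libraries and depth.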

How the data were processed

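The counts deposited by the authors are raw numbers of reads per gene, in 2 tables with 1 column per library. Per the submitters' processing notes, reads were handled with deepTools, STAR and featureCounts on mm10, with DESeq2 downstream, and the kit used for the mRNA libraries keeps strand. The strand setting of the counting and the annotation are not given in the sources used here. Of 47937 gene identifiers, 47224 matched a symbol of the GRCm38 annotation used here, all 9 receptors among them. Every column was used, and 1 labelled library, replicate 1 of Odc KO TH2, was not analysed here.

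The members and the lists of genes were chosen with earlier results of these data known. Genes outside the 9 were named by rule, as the 3 of a list with the largest mean log2 fold change among those called in at least 4 comparisons, and as the 3 genes most alike, and lineage factors and markers were added as context. Some genes these rules name are not reported here. Counts were tested in R 4.3.3 with edgeR 4.0.16 (filterByExpr over 8 groups, TMM, robust quasi-likelihood, 1 fit per table), with adjusted p-values over 13839 genes in the Odc table, 13897 in the Dohh table and 12924 in both. CPM are counts scaled by the library size after TMM. A count of 0 allows up to 3 counts, 0.31 to 0.499 CPM (Odc) and 0.226 to 0.473 CPM (Dohh), and floors and intervals cover counting error only. The series' design text calls replicates biological, and the lowest chi-square per gene over 69 pairs of replicates was 2.61, so none was a duplicate. WT libraries of the Odc table with the same number deviated together across subsets, with all 24 correlations between 0.206 and 0.576, and numbers therefore pair them, and with Dohh 15 of 18 passed 0.1. KO libraries did so across subsets in 20 of 21 pairs with Odc and 13 of 18 with Dohh. WT and KO libraries with the same number did not, with 7 of 15 and 1 of 12 above 0.1.

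Alternatives were RLE size factors, DESeq2 1.42.0, no low-count filter, fitting just the 2 compared groups, a filter at 50 mean counts, the replicate number as a block, glmTreat, the adjusted p-value alone or below 0.01, and each library left out. Scripts were tested on simulated data. limma 3.58.1, Python 3.11.15, numpy 2.4.6, pandas 2.3.3, scipy 1.17.1 and matplotlib 3.10.9 were also used.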

Additional observations from a re-analysis of the deposited data

Results flagged for a closer look

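In 4 of 63 tested groups of 4 libraries, 1 library lay apart from the rest, measured as its gap to the nearest divided by the range of the group on the scale of log2(CPM + 1), and chance marks about 1 in 20 groups. The ratio was 0.850 for Ccr6 in WT TH2 of the Odc table (replicate 4, 2.04 CPM), 0.880 for Cxcr3 in WT TH1 (replicate 4, 22.8 CPM), 0.832 for Cxcr4 in KO TH17 (replicate 1, 96.5 CPM) and 0.911 for Cxcr6 in WT Treg (replicate 2, 3.20 CPM).

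The effect of genotype differed between subsets by edgeR's joint test for Ccr2 (adjusted p = 6.63e-06), Ccr6 (0.000186), Ccr8 (7.24e-06), Cxcr3 (0.00177) and Cxcr6 (0.00101) in the Odc table. In the Dohh table it differed for Ccr6 (adjusted p = 0.00112), Ccr7 (0.00561), Ccr8 (8.98e-05) and Cxcr3 (6.70e-07).

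The Dohh effect differed from the Odc effect, given as Dohh minus Odc on the log2 scale, in TH1 for Ccr1 (2.96), Ccr2 (3.27), Ccr4 (-1.98), Ccr6 (-6.10, with 3 counts in all in the Dohh KO libraries), Ccr8 (-2.80), Cxcr3 (-3.27) and Cxcr6 (4.03). In TH2 it differed for Ccr1 (4.17), Cxcr4 (1.83) and Cxcr6 (2.77). In TH17 it differed for Ccr1 (5.21), Ccr2 (3.97), Ccr4 (-1.47), Ccr6 (-1.68), Ccr7 (-2.33), Ccr8 (-1.58), Cxcr3 (1.08) and Cxcr6 (2.26). In Treg it differed for Ccr1 (3.31), Ccr2 (2.48), Ccr6 (-5.03), Ccr7 (-1.93), Ccr8 (-3.74) and Cxcr6 (1.97). Without KO replicate 3 of Dohh TH1, the Dohh effect in TH1 fell from 2.74 to 1.06 for Ccr2, which was then not called, and from 3.09 to 2.01 for Ccr1, and the differences were not refitted without that library. Table and deleted gene cannot be told apart in these differences.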

How the results depend on the processing

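Over the single receptors in KO against WT, 542 of 575 values under other settings and 476 of 495 with 1 library left out kept their direction and their side of the threshold, and the cause of the others was not tested. The stricter glmTreat, whose null is a 2-fold change, moved the number of receptors called from 4 to 0 in Odc TH2, 3 to 0 in Odc TH17, 5 to 3 in Odc Treg and 5 to 2 in Dohh TH2. Among WT pairs it moved TH1 and TH2 from 5 to 1 and TH2 and Treg from 4 to 2 with Odc, and with Dohh TH1 and TH2 from 2 to 1, TH1 and TH17 from 5 to 1, TH2 and TH17 from 4 to 2 and TH17 and Treg from 3 to 1. The adjusted p alone called 5 in Odc TH1 in place of 2. With only the 2 groups in the fit, WT TH1 and TH2 of the Dohh table differed in 6 receptors and TH1 and TH17 in 8, and without the filter TH17 and Treg differed in 1. With a library left out the counts in the Dohh table were 3 to 5 for TH1 and TH17 (3 without WT TH17 replicate 3) and 1 to 3 for TH17 and Treg (1 without WT TH17 replicate 1, WT Treg replicate 2 or WT Treg replicate 3). An adjusted p below 0.01 left 5 of 8 differences between the Dohh and Odc effects in TH17. With the replicate number as a block Ccr1 in Odc TH1 turned to -0.0724, Ccr1 in Odc TH2 was called (1.13) and Ccr7 in Odc Treg was not (-0.99), the joint test called 7 receptors in place of 5 in the Odc table (Ccr1 and Cxcr4 in addition), and the block added to WT pairs Ccr1 in TH1 and Treg (2.47) and Ccr2 in TH17 and Treg (2.77) of the Dohh table; no other call of KO against WT changed. Ccr7 in Odc TH17, 0.03, turned to -0.00759 with RLE size factors and -0.00773 with DESeq2, and ran from -0.0785 to 0.13 with a library left out. Left-out libraries also turned Ccr1 in Odc TH1 (-0.77 to 0.46), Ccr6 in Dohh TH2 (-1.73 to 0.56, near the counting floor) and Ccr8 in Dohh TH17 (-0.42 to 0.00619), none of them called. Depth limits Ccr6 in TH1 and TH2 of the Dohh table, which lay near the floor of 3 counts. Group totals were also low in Dohh Treg, with 20 and 27 counts for Ccr1 and Ccr2 in WT and 21 for Ccr6 in KO libraries.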
